A study of Mus musculus with 12 samples.

Results

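The transcription factor p53 and the genes it activates were followed in livers of male C57BL/6N mice, fed either chow or a diet rich in fat, cholesterol and fructose (HFCF). The members were *Trp53*, which encodes p53, and the 9 target genes *Cdkn1a*, *Mdm2*, *Bax*, *Ccng1*, *Gdf15*, *Fas*, *Bbc3*, *Phlda3* and *Trp53inp1*. They were found by their names in both count tables, 10 genes of the 20093 that both tables list, and all 10 passed the filter on low counts in both diets. Bulk RNA-seq was done on 12 livers, 3 in each of 4 groups: chow WT, chow HuRHep-/-, HFCF WT and HFCF HuRHep-/-. Per the labels, all 12 mice carried floxed alleles of *HuR* (*Elavl1*) and were 4 to 6 months old. Mice labelled HuRHep-/- had received AAV8-Tbg-Cre, an adeno-associated virus that makes Cre recombinase from a hepatocyte promoter, and mice labelled WT had received AAV8-Tbg-null. Non-parenchymal cells are not targeted by that promoter, and because the WT virus held no Cre, the presence of Cre and the loss of *HuR* cannot be told apart. The study's methods describe another model, floxed mice crossed with albumin-Cre mice. The HFCF groups had been fed for 16 weeks with 40 kcal% fat, 20 kcal% fructose and 2% cholesterol, and the chow groups had normal chow. The 2 diets are in separate count tables, so diet, table and feeding period cannot be told apart.

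p53 is kept low in unstressed cells because Mdm2, an E3 ubiquitin ligase and itself a p53 target, marks it for degradation. Damage to DNA, oxidative stress and oncogene activity stabilize the p53 protein, with little need for more *Trp53* mRNA, and p53 then binds response elements near its targets. These include genes that stop the cell cycle (p21, encoded by *Cdkn1a*), genes that start apoptosis (*Bax*, *Bbc3*, *Fas*), genes of feedback on p53 (*Mdm2*, *Ccng1*) and stress genes such as *Gdf15*. In fatty liver disease, p21 in hepatocytes is a known sign of senescence. HuR is an RNA-binding protein that binds AU-rich elements of mRNAs, and mRNAs of p21 and p53 are among its known targets in cultured cells. Several of these genes also respond to other factors, *Gdf15* and *Bbc3* among them.

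The response element of p53 is a pair of consensus decamers, each of 10 bases. In the RefSeq promoter windows of GRCm38.p6, 250 bases before to 50 after a start, 9 of the 10 members had an entry, with 1 to 3 windows each, so the counts of members cannot be set directly against shares of windows. A decamer without mismatch was found in 5 of these 9 (*Trp53*, *Cdkn1a*, *Mdm2*, *Bax* and *Ccng1*), and in 8.36% of all 32851 windows. A pair with a spacer of 0 or 1 base and at most 1 mismatch over its 20 bases was found in 3 members, *Cdkn1a*, *Ccng1* and *Bax*, and in 0.177% of all windows, 58 in number. The consensus is its own reverse complement, so 1 scan covers both strands. These 3 stretches are shown because they belong to members that differ in how they moved with diet. Each line gives the first 220 bases of the window 5′ to 3′ on the gene's strand, with the pair in capitals.
Cdkn1a, chr17:29090729-29090948, plus strand: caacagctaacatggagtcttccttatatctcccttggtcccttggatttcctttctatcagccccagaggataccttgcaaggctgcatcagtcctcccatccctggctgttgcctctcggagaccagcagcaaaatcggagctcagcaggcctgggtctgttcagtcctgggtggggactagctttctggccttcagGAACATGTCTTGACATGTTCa
Ccng1, chr11:40755317-40755536, minus strand: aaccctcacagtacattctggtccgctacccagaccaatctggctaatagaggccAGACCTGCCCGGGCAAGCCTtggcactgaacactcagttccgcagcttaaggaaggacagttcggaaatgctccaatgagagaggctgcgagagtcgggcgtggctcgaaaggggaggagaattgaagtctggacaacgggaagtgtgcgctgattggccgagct
Bax, chr7:45466929-45467148, minus strand: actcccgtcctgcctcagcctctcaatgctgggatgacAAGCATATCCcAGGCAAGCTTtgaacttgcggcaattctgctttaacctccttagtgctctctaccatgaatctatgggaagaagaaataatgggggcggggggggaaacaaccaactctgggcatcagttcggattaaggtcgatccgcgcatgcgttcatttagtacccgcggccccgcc
The pair starts at position -51 from the annotated start of the printed window in *Cdkn1a*, at -195 in *Ccng1* and at -212 in *Bax*. A second annotated start of *Cdkn1a*, with its window at chr17:29093519-29093818, had neither a decamer nor a pair. In *Cdkn1a* and *Ccng1* the decamers adjoin, and in *Bax* 1 base separates them. No pair was found in the windows of the other members with an entry, and a match says only that these letters are in the window.

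The libraries held 30071731 to 35949203 counted reads. *Elavl1* was checked first, since it is the targeted gene. Its level in CPM, reads scaled to library size, was 30.9, 29.3 and 31 in chow WT livers and 42.8, 39.2 and 38.8 in chow HuRHep-/- livers. On HFCF it was 23.9, 24.1 and 27 against 32.4, 32.2 and 34.2 CPM. The transcript was higher in livers labelled HuRHep-/- on both diets (log2 fold change 0.41, adjusted p = 0.022 in chow and 0.38, adjusted p = 0.0327 in HFCF, limma), which goes against the label. Reads were summed over the gene, so a deleted exon cannot be seen in them. The groups are named by their labels throughout, and each direction for genotype rests on them.

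Per length of merged exons, *Gdf15* stood highest and *Bax* next in each of the 4 groups, and the order of the others changed with diet. In chow WT livers, *Gdf15* was at 17.9 ± 9.61 CPM per kb (SD, n = 3), *Bax* at 13.6 ± 1.54 and *Ccng1* at 7.23 ± 0.033. *Fas*, *Trp53inp1*, *Trp53*, *Mdm2* and *Bbc3* followed, from 6.2 ± 0.142 down to 3.02 ± 0.333 CPM per kb. *Phlda3* (0.481 ± 0.167) and *Cdkn1a* (0.338 ± 0.00361) were the lowest. Livers of neighbours in that order overlapped for *Gdf15* and *Bax*, for *Trp53inp1* and *Trp53*, for *Mdm2* and *Bbc3*, and for *Phlda3* and *Cdkn1a*, and not for the other neighbours. In HFCF WT livers *Cdkn1a* was at 4.28 ± 3.13 CPM per kb, and its livers overlapped those of *Trp53* (4.22 ± 0.291) and *Mdm2* (3.98 ± 0.297). In HFCF livers labelled HuRHep-/- *Cdkn1a* reached 8.28 ± 2.12 and *Phlda3* 4.65 ± 0.483 CPM per kb.

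**Figure D1:**
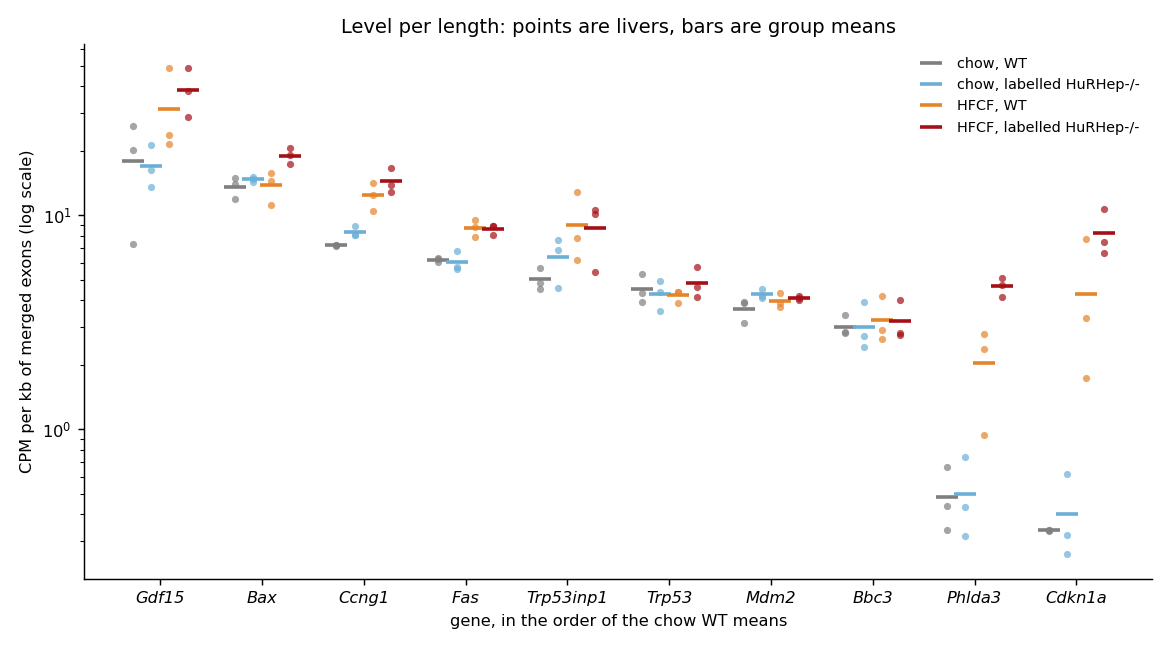
CPM per kb of merged exons (log scale) of the 10 genes; points are livers and bars are the means of 3 livers in each of the 4 groups. *Phlda3* and *Cdkn1a* are lowest in chow, at 0.481 and 0.338 CPM per kb in WT, and move up on HFCF, while *Trp53*, *Mdm2* and *Bbc3* have means between 3.02 and 4.82 in all groups.

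The comparison of HFCF with chow asks how the p53 genes differ after the long feeding of this diet, within each genotype. *Cdkn1a* and *Phlda3* rose most, *Ccng1* and *Fas* rose by less than 2-fold, and *Trp53*, *Mdm2* and *Bbc3* did not pass the test in either genotype. In WT livers 4 of the 10 genes rose and 0 fell, and in livers labelled HuRHep-/- 6 rose and 0 fell, with p adjusted over the 14535 genes tested and a threshold of 0.05. Of all tested genes, 24.2% passed in WT livers, 11.3% in the direction higher in HFCF, and 38.9% and 19.7% in the livers labelled HuRHep-/-. With a fold change of at least 1.5 also asked, 3 members rose in WT livers against 6.14% of all genes, and 4 in livers labelled HuRHep-/- against 14.2%. The median log2 fold change of the members was 0.63 in WT and 0.47 in the others, and that of all genes 0.0094 and 0.002. At an unadjusted p under 0.05 by limma there were 5 members in WT livers and 6 in the others, against 37.8% and 48.2% of all genes. How many of all genes had diet groups without overlap was not counted. Where livers of the diets are said not to overlap, this describes single members only.

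Among the cell-cycle genes, *Cdkn1a* (ENSMUSG00000023067, chromosome 17, 29090976 to 29100727, GRCm38) had 36, 36 and 37 reads in the chow WT livers and 76, 37 and 30 in the chow livers labelled HuRHep-/-. On HFCF it had 446, 203 and 870 reads in WT livers and 949, 1029 and 1410 in those labelled HuRHep-/-. As CPM these were 1.18, 1.2 and 1.21 in chow WT, 2.2, 1.15 and 0.923 in chow HuRHep-/-, 11.8, 6.2 and 27.6 in HFCF WT, and 23.7, 26.7 and 38 in HFCF HuRHep-/-. All 6 HFCF livers lay above all 6 chow livers. The WT livers on HFCF spread over 4.46-fold, against 1.02-fold in chow. *Cdkn1a* rose 10.4-fold in WT livers (log2 fold change 3.38, standard error 0.45, adjusted p = 0.000807, limma) and 21.5-fold in livers labelled HuRHep-/- (4.43, standard error 0.45, adjusted p = 0.000106). By size of the rise it ranked 43rd of 14535 genes in WT livers and 32nd in the others. Of its exons, 7.68% overlap *AC167363.2* on the opposite strand; the reads were aligned with a strand setting.

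*Ccng1* (ENSMUSG00000020326, chromosome 11, 40748552 to 40755311) encodes cyclin G1, which acts with protein phosphatase 2A on Mdm2. Its level was 25.5, 25.3 and 25.4 CPM in chow WT, 31.2, 28.3 and 28.5 in chow HuRHep-/-, 43.7, 36.9 and 50 in HFCF WT, and 45, 58.7 and 48.4 in HFCF HuRHep-/-. The lowest HFCF liver, at 36.9 CPM, stood above the highest chow liver, at 31.2. *Ccng1* rose 1.7-fold in WT livers (log2 fold change 0.77, standard error 0.11, adjusted p = 0.00122) and 1.72-fold in those labelled HuRHep-/- (0.78, standard error 0.11, adjusted p = 0.000571, limma).

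Of the genes tied to cell death and survival, *Phlda3* (ENSMUSG00000041801, chromosome 1, 135766119 to 135769136) encodes a protein with a pleckstrin homology domain that holds back the survival kinase Akt. It had 16, 31 and 21 reads in chow WT livers, 40, 16 and 22 in chow HuRHep-/-, 140, 48 and 137 in HFCF WT, and 259, 307 and 272 in HFCF HuRHep-/-. In CPM these were 0.527, 1.04 and 0.686, then 1.16, 0.495 and 0.677, then 3.69, 1.47 and 4.35, and 6.46, 7.96 and 7.32. All HFCF livers again lay above all chow livers, and HFCF WT replicate 2 came closest to them. *Phlda3* rose 3.91-fold in WT livers (log2 fold change 1.97, standard error 0.41, adjusted p = 0.0062) and 9.69-fold in those labelled HuRHep-/- (3.28, standard error 0.41, adjusted p = 0.000298).

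*Fas* (ENSMUSG00000024778, chromosome 19, 34290666 to 34327772) encodes a death receptor that hepatocytes carry. It was at 13, 12.9 and 12.5 CPM in chow WT, 14, 11.8 and 11.5 in chow HuRHep-/-, 19.6, 18.3 and 16.4 in HFCF WT, and 18.4, 18.3 and 16.7 in HFCF HuRHep-/-. The groups of the 2 diets did not overlap. The rise was 1.41-fold in WT livers (log2 fold change 0.49, standard error 0.093, adjusted p = 0.00386) and 1.44-fold in those labelled HuRHep-/- (0.52, standard error 0.093, adjusted p = 0.0016).

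*Bax* (ENSMUSG00000003873, chromosome 7, 45461697 to 45466898) encodes a pore-forming protein of the outer mitochondrial membrane. Its level was 22.1, 18.8 and 23.5 CPM in chow WT, 22.5, 23.3 and 23.8 in chow HuRHep-/-, 22.8, 17.6 and 24.8 in HFCF WT, and 27.4, 30 and 32.6 in HFCF HuRHep-/-. The WT livers of the 2 diets overlapped, whereas all 3 HFCF livers labelled HuRHep-/- were above the other 9. In WT livers the log2 fold change was 0.0096 (standard error 0.12, adjusted p = 0.966), and in livers labelled HuRHep-/- *Bax* rose 1.29-fold (0.37, standard error 0.12, adjusted p = 0.0348). That call was kept in 7 of the 12 fits that left out a library, with adjusted p between 0.00999 and 0.115, and was lost without any 1 of the 3 chow livers labelled HuRHep-/- or without HFCF HuRHep-/- replicate 2 or 3. *Bax* is uncertain in part, since 12.2% of its exon bases are shared on the same strand with *Gm45808*. *Bbc3* (ENSMUSG00000002083, chromosome 7, 16308393 to 16318205) encodes PUMA, which activates Bax. It lay between 5.14 and 8.89 CPM over the 12 livers, with log2 fold changes of 0.08 and 0.087 (standard error 0.22 each, adjusted p = 0.82 and 0.778).

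**Figure D2:**
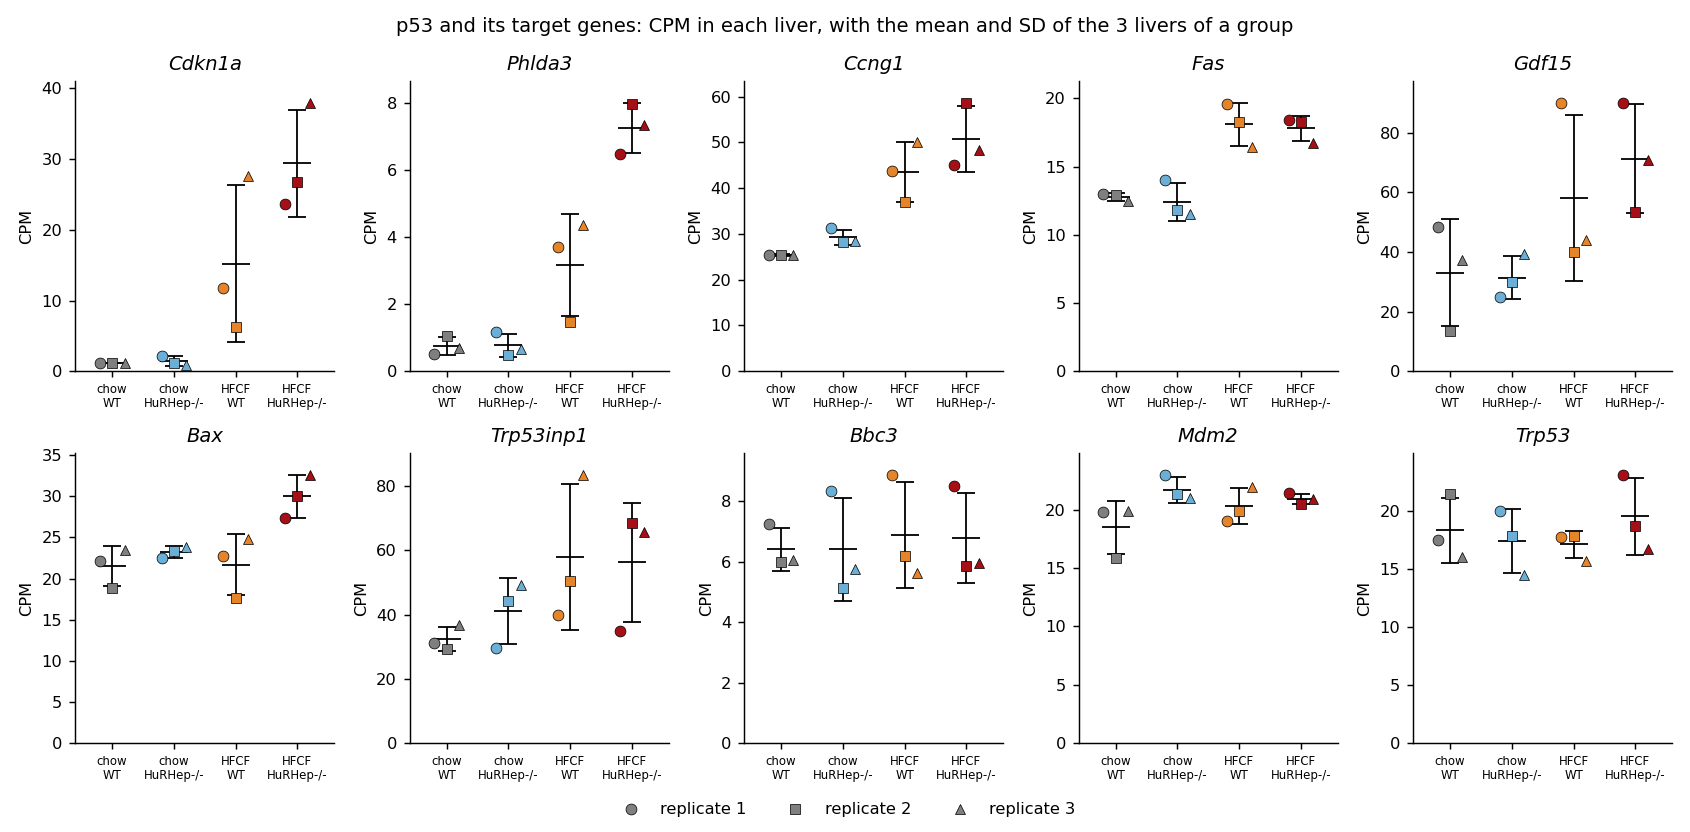
CPM of each gene in each liver (marker shape by replicate), with the mean and SD of the 3 livers of a group; axes start at 0. *Cdkn1a*, *Phlda3*, *Ccng1* and *Fas* are higher in the HFCF livers of both genotypes without overlap, and *Bax* stands apart in HFCF livers labelled HuRHep-/- at 27.4 to 32.6 CPM. The share of all genes whose diets separate in this way was not counted.

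*Gdf15* (ENSMUSG00000038508, chromosome 8, 70629393 to 70632456) encodes a secreted stress hormone. It varied more between livers of 1 group than most members, with 48.5, 13.6 and 37.2 CPM in chow WT, 24.9, 30 and 39.4 in chow HuRHep-/-, 90.1, 40 and 44 in HFCF WT, and 89.9, 53.3 and 70.7 in HFCF HuRHep-/-. WT livers of the 2 diets overlapped (log2 fold change 0.90, standard error 0.43, adjusted p = 0.149), and livers labelled HuRHep-/- did not. Without chow WT replicate 2 the estimate in WT livers fell to 0.35 (adjusted p = 0.476), and without HFCF WT replicate 1 to 0.53 (adjusted p = 0.427). In livers labelled HuRHep-/- *Gdf15* rose 2.26-fold (1.17, standard error 0.43, adjusted p = 0.0476). That call rests near the threshold: it held in 4 of the 12 fits that left out a library, with adjusted p between 0.0113 and 0.146, and was lost without chow WT replicate 3, HFCF WT replicate 3 or any 1 of the 6 livers labelled HuRHep-/-. It was also lost without the filter on low counts (adjusted p = 0.0518). *Trp53inp1* (ENSMUSG00000028211, chromosome 4, 11156431 to 11174379), a cofactor of p53 in stress and autophagy, was at 31.3, 29.4 and 36.7 CPM in chow WT and 40, 50.5 and 83.6 in HFCF WT. These groups did not overlap, yet the change missed the threshold (log2 fold change 0.77, standard error 0.30, adjusted p = 0.0801). With a block for the replicate number it passed (standard error 0.179, adjusted p = 0.0136, limma). Without HFCF WT replicate 1 its adjusted p was 0.0497, without HFCF HuRHep-/- replicate 1 it was 0.0447, and without HFCF WT replicate 3 the estimate fell to 0.48 (adjusted p = 0.281). In livers labelled HuRHep-/- it went from 29.6, 44.3 and 49.4 to 35, 68.4 and 65.6 CPM, with overlap (0.42, standard error 0.30, adjusted p = 0.28).

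The regulator and the factor itself did not pass in either genotype. *Mdm2* (ENSMUSG00000020184, chromosome 10, 117688875 to 117710758) was at 19.8, 15.9 and 19.9 CPM in chow WT, 23, 21.3 and 21 in chow HuRHep-/-, 19, 19.9 and 21.9 in HFCF WT, and 21.4, 20.5 and 20.9 in HFCF HuRHep-/-. Its log2 fold changes with diet were 0.13 and -0.055 (standard error 0.093 each, adjusted p = 0.321 and 0.663). *Trp53* (ENSMUSG00000059552, chromosome 11, 69580359 to 69591873) was at 17.5, 21.4 and 16 CPM in chow WT, 20, 17.8 and 14.5 in chow HuRHep-/-, 17.7, 17.8 and 15.7 in HFCF WT, and 23.1, 18.7 and 16.7 in HFCF HuRHep-/-. Its log2 fold changes were -0.09 and 0.16 (standard error 0.15 each, adjusted p = 0.696 and 0.409). Of the 31-base words of *Trp53*, 9.46% also occur in other genes, mainly the pseudogene *Trp53-ps*.

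*Cdkn1a*, *Phlda3*, *Ccng1* and *Fas* passed in both genotypes in each of the 12 fits that left out a library and in the 6 other settings of scaling, filter, pseudocount, weights and block. The rise of *Fas*, 1.41-fold and 1.44-fold as reported, did not meet the added fold criterion of 1.5; in livers labelled HuRHep-/- its log2 fold change reached 0.60 with upper-quartile factors and 0.61 without chow HuRHep-/- replicate 1. Markers of other cells moved with diet as well. Summed hepatocyte markers (11 genes) were at 112461 to 137138 CPM in chow WT and 81338 to 90668 in HFCF WT livers, and at 93360 to 102996 and 73569 to 79514 CPM in those labelled HuRHep-/-; 6 of the 11 fell in each genotype, where 12.9% of all genes fell in WT livers and 19.1% in the others. Kupffer cell and macrophage markers (15 genes) ran from 297 to 405 CPM in chow WT and 425 to 783 in HFCF WT, with 7 of 15 higher, and from 383 to 567 and 816 to 1077 CPM in livers labelled HuRHep-/-, with 11 of 15 higher. The 12 stellate cell and fibroblast markers summed to 281 to 319 and 312 to 597 CPM in WT livers, 3 of them higher on HFCF, and to 219 to 324 and 579 to 692 CPM in those labelled HuRHep-/-, where 12 of 12 were higher. Beside these counts, 11.3% of all genes rose with diet in WT livers and 19.7% in the others. None of the genes of these 3 lists was at 0 throughout a group. In bulk liver, more RNA of a gene per cell and more cells of a type that makes it cannot be told apart, and the part of these cells in the members' rises was not tested.

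**Figure D3:**
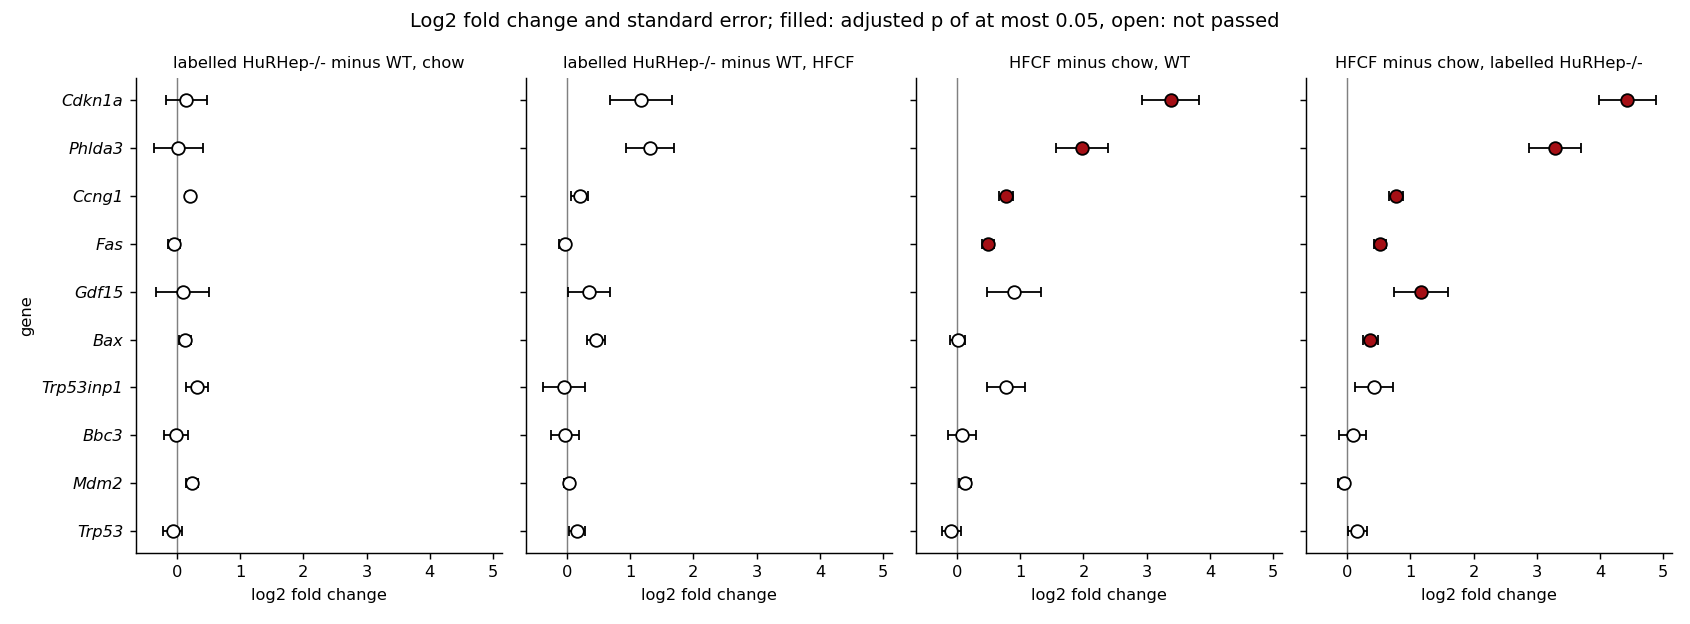
Log2 fold change (horizontal axis) with its standard error for each gene in the 4 comparisons; filled points have an adjusted p of at most 0.05. With diet *Cdkn1a* stands at 3.38 in WT and 4.43 in livers labelled HuRHep-/-, whereas no point is filled in either genotype comparison.

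The comparison of livers labelled HuRHep-/- with WT on HFCF asks whether the p53 genes differ with hepatocyte HuR under this diet. *Phlda3*, *Cdkn1a* and *Bax* had the largest differences, all toward higher values in livers labelled HuRHep-/-, and none passed the threshold. By limma 0 of the 10 genes passed over the 14295 tested, while 6.79% of all genes passed, and 3 members had an unadjusted p under 0.05 against 29.5% of all genes. With voom weights 0 of the 10 passed as well. The groups did not overlap for 2 members, *Phlda3* and *Bax*, and for 36.8% of all genes. The levels of *Phlda3*, 6.46 to 7.96 CPM against 1.47 to 4.35, gave a 2.48-fold difference (log2 fold change 1.31, standard error 0.38, adjusted p = 0.0794). *Bax* was 1.38-fold higher by estimate (0.46, standard error 0.14, adjusted p = 0.0813), and the 2 groups of *Cdkn1a* overlapped, with HFCF WT replicate 3 at 27.6 CPM above 2 of the 3 livers labelled HuRHep-/- (1.17, standard error 0.49, adjusted p = 0.164). The remaining estimates lay between -0.051 for *Trp53inp1* and 0.35 for *Gdf15*, with adjusted p of at least 0.352. The median of the 10 was 0.18, and that of all genes -0.0017.

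The calls of *Cdkn1a* and *Phlda3* changed when single WT livers were left out, with the direction kept. Without HFCF WT replicate 3, *Cdkn1a* (log2 fold change 1.74, adjusted p = 0.0323) and *Phlda3* (1.62, adjusted p = 0.0482) passed. Without HFCF WT replicate 2 the estimate for *Cdkn1a* fell to 0.66 (adjusted p = 0.295), and without HFCF HuRHep-/- replicate 3 it was 0.98 (adjusted p = 0.352). *Phlda3* passed without HFCF WT replicate 2 at a smaller difference (0.83, adjusted p = 0.034), and without single other livers its adjusted p reached 0.201. *Bax* did not pass with any library left out (0.32 to 0.57, adjusted p between 0.0534 and 0.207), and it passed in the fit on all 12 libraries (adjusted p = 0.0311). HFCF WT replicate 2 had the lowest level of its group for 5 of the 10 members (*Cdkn1a*, *Phlda3*, *Bax*, *Ccng1* and *Gdf15*). The same liver was lowest in the summed markers of macrophages (425 CPM against 554 and 783), of stellate cells (312 against 492 and 597), of cholangiocytes (137 against 216 and 232) and of proliferating cells (8.18 against 15.7 and 21.4), as well as of endothelial cells (140 against 155 and 172) and neutrophils (2.32 against 3.03 and 3.43). It was highest in those of hepatocytes (90668 against 81338 and 82749) and of T and NK lymphocytes (6.59 against 4.64 and 5.23), and lay between the other two for B lymphocytes (15.4 against 11.8 and 24.6). *Spp1* is on both the macrophage and the cholangiocyte lists, so their sums are not independent. In HFCF livers labelled HuRHep-/- it had a mean of 158 CPM, where the cholangiocyte sum had a mean of 328. The part of these cells in the values was not tested. HFCF WT replicate 3 was the highest of its group for 6 members. Between genotypes on HFCF, 15 of 15 macrophage markers had higher estimates (median log2 fold change 0.62, 0 passed), as had 14 of 14 proliferation markers (median 1.1, 0 passed). *Acta2* (1.27, adjusted p = 0.0376) and *Tagln* (0.76, adjusted p = 0.0384) of the stellate list and *Krt7* (1.40, adjusted p = 0.0327) and *Krt19* (1.32, adjusted p = 0.0247) of the cholangiocyte list were higher in livers labelled HuRHep-/-. Their part in the difference of the members was not tested.

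In chow, where the same comparison asks about livers without the diet, 0 of the 10 members passed by limma over the 13526 genes tested, while 4.18% of all genes passed. With voom weights it was again 0 of the 10. At an unadjusted p under 0.05 there were 2 members, against 23.5% of all genes. These 2, *Ccng1* and *Mdm2*, were also the only members whose groups did not overlap, which held for 29.5% of all genes. *Ccng1* was at 28.3 to 31.2 CPM in livers labelled HuRHep-/- and 25.3 to 25.5 in WT livers (log2 fold change 0.21, standard error 0.069, adjusted p = 0.124). *Mdm2* was at 21 to 23 CPM against 15.9 to 19.9 (0.24, standard error 0.10, adjusted p = 0.204), and without chow WT replicate 2 its estimate was 0.14 (adjusted p = 0.305). For *Cdkn1a* the estimate was 0.15 (standard error 0.32, adjusted p = 0.816) and for *Phlda3* 0.022 (standard error 0.39, adjusted p = 0.981). Chow HuRHep-/- replicate 1 was the highest of its group for 7 members, with *Cdkn1a* at 2.2 CPM against 1.15 and 0.923. Without it the estimate for *Cdkn1a* turned to -0.22 (adjusted p = 0.68), and over all fits that left out a library its adjusted p lay between 0.448 and 0.873. The median of the 10 members was 0.11 and that of all genes 0.0049. In chow, too, 15 of 15 macrophage markers had higher estimates in livers labelled HuRHep-/- (median 0.44, 0 passed). *Cdh1* of the cholangiocyte list was higher as well (0.84, adjusted p = 0.022). The part of these cells in the members' values was not tested.

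Whether the difference between genotypes itself changed with diet was tested as an interaction over the 12 livers. By limma 0 of the 10 members and 0 of all 14535 genes (0%) passed, and 1 member had an unadjusted p under 0.05 against 14.4% of all genes. With voom weights 0 members passed as well. That member was *Phlda3*, whose genotype difference was larger on HFCF by 1.31 on the log2 scale (standard error 0.58, adjusted p = 0.33). For *Cdkn1a* the interaction was 1.05 (standard error 0.64, adjusted p = 0.473) and for *Bax* 0.36 (standard error 0.17, adjusted p = 0.377). Without HFCF WT replicate 2 these values fell to 0.83 for *Phlda3*, 0.53 for *Cdkn1a* and 0.21 for *Bax*, and without HFCF WT replicate 3 that of *Cdkn1a* was 1.61 (adjusted p = 0.159). The rises with diet that passed in 1 genotype alone, *Bax* and *Gdf15*, were thus not shown to differ between genotypes (interaction for *Gdf15* 0.28, standard error 0.61, adjusted p = 0.874).

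*Cdkn1a* had the widest range of the members over the 12 livers, 5.34 on the log2 CPM scale, and its profile was compared with those of 14534 other genes. The measure was the root mean square difference of log2 CPM standardized over the 12 livers, which share the step between the diets, so the order is a description. Closest were *Mmp12* (0.133), *Fndc10* (0.136), *Vat1* (0.16), *2010003K11Rik* (0.167) and *Stx7* (0.17). *Mmp12*, a macrophage elastase, went from 0.201 to 0.493 CPM in the 6 chow livers to 4.46, 1.37 and 13.5 in HFCF WT and 12, 8.24 and 26 in HFCF HuRHep-/-. *2010003K11Rik* was at 10.6 to 26.6 CPM in chow and at 65.2, 33.9 and 84.9, then 96.1, 86.2 and 90.5 CPM on HFCF. In both genes HFCF WT replicate 2 was the lowest HFCF liver, as in *Cdkn1a*. Both were picked for their likeness over these same livers, so the shared low value follows from the choice. Of the members, *Phlda3* ranked 16th (0.243) and *Ccng1* 25th (0.264), *Fas* ranked 786th (0.497), and *Trp53* (1.31), *Bbc3* (1.3) and *Mdm2* (1.21) were the least alike.

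**Figure D4:**
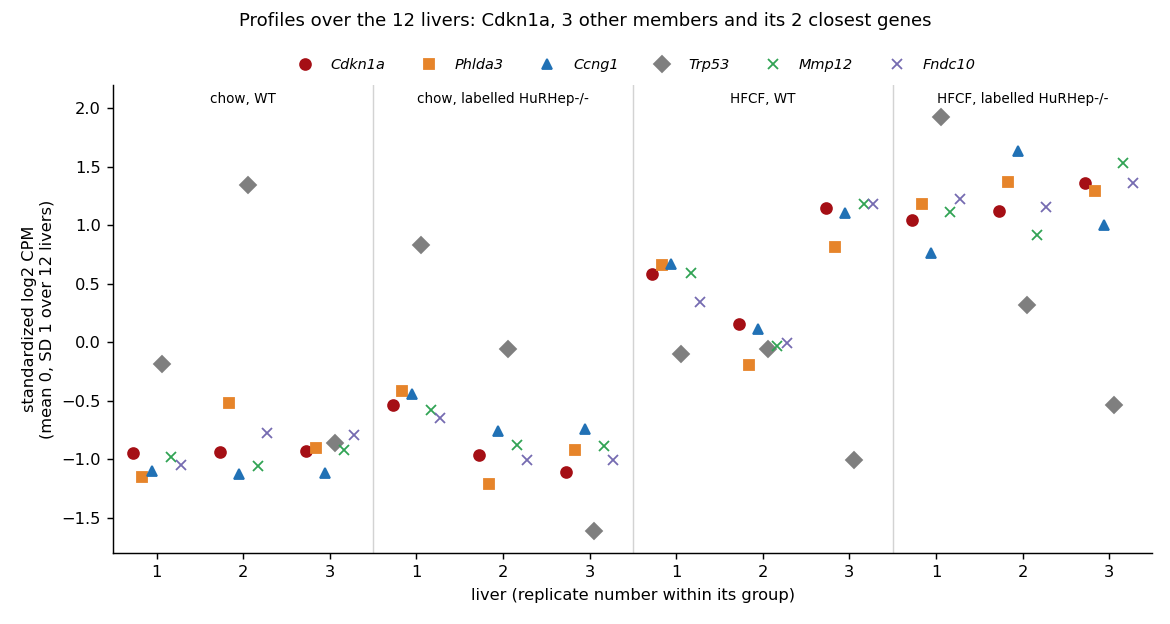
Standardized log2 CPM (mean 0, SD 1) in each of the 12 livers, in 4 blocks by group, for *Cdkn1a*, *Phlda3*, *Ccng1*, *Trp53* and the 2 genes closest to *Cdkn1a*. *Phlda3* (distance 0.243) and *Ccng1* (0.264) follow *Cdkn1a* from chow to HFCF and dip together in HFCF WT replicate 2, and *Trp53* (1.31) does not follow it.

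Other genes of the pathway were taken from 4 lists with 74 entries, 72 of them in the tables. These lists held p53 regulators and targets in the cell cycle, in cell death, and in metabolism and repair. With diet, 11 of the 68 tested genes rose and 7 fell in WT livers, and 25 rose and 13 fell in livers labelled HuRHep-/-, with median log2 fold changes of 0.14 and 0.092. Of the 66 that also passed the filter on low counts in chow, 10 rose and 7 fell in WT livers, and 24 rose and 13 fell in the others. Of all genes 11.3% were higher and 24.2% passed in WT livers, and 19.7% were higher and 38.9% passed in the others. Among the genes that passed in WT livers and also passed the filter in chow, the largest changes were rises of *Eda2r*, a receptor of the tumour necrosis factor family (2.62, standard error 0.41, adjusted p = 0.00172), *Pmaip1*, which encodes the apoptosis activator Noxa (1.34, adjusted p = 0.00899), *Gtse1* (1.31, adjusted p = 0.0111) and *Btg2*, an antiproliferative gene (1.29, adjusted p = 0.0288). Among such genes in livers labelled HuRHep-/- they were rises of *Eda2r* (3.07), *Ckap2* (2.54), the death receptor gene *Tnfrsf10b* (2.13) and *Btg2* (2.00), with adjusted p between 0.00042 and 0.00374. *Psrc1*, a spindle protein that was called higher in both genotypes, passed the filter on low counts only through the HFCF livers: it had 3, 3 and 1 reads in chow WT, 8, 7 and 4 in chow HuRHep-/-, 20, 9 and 19 in HFCF WT, and 60, 66 and 44 in HFCF HuRHep-/-. These chow reads are too few for a fold change, so *Psrc1* is left out of the order above. *Eda2r* had 7, 6 and 13 reads in chow WT and 20, 13 and 8 in chow HuRHep-/-. Mean chow levels were 0.275 CPM for *Pmaip1* and 0.484 for *Gtse1* in WT livers. In chow livers labelled HuRHep-/- they were 0.271 for *Ckap2* and 0.369 for *Tnfrsf10b*. The fold changes of these genes with diet also rest on few reads in chow, whereas *Btg2* was at 18 and 21.4 CPM there.

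Of the cell death targets 6 of 19 rose and 1 fell in WT livers, where 11.3% of all genes rose, and 12 rose and 1 fell in those labelled HuRHep-/-, where 19.7% of all genes rose, with medians of 0.44 and 0.66. *Bcl2l1* (0.66, adjusted p = 0.00431) and *Triap1* (0.26, adjusted p = 0.0495), named after their values were seen, were among the 12 and are known to hold back apoptosis. Of the cell cycle targets 3 of 11 rose and 0 fell in WT livers, and 5 rose and 1 fell in the others. *Psrc1* and *E2f7* were under the filter in chow alone, and of the 9 cell cycle targets that were not, 2 rose in WT livers and 4 in the others. *Psrc1*, *Gtse1* and *Ckap2* of that list are also expressed in dividing cells, and of the 14 tested markers of proliferating cells 2 rose in WT livers and 10 in those labelled HuRHep-/-, with 0 falling; of the 12 that also passed the filter in chow, 1 and 8 rose. The summed proliferation markers were at 9.1 to 10.5 CPM in chow WT, 10.6 to 14.8 in chow HuRHep-/-, 8.18 to 21.4 in HFCF WT and 23.7 to 34.7 in HFCF HuRHep-/-, and their part in these rises was not tested. The metabolism and repair targets went both ways, with 1 of 24 higher and 3 lower in WT livers, and 4 higher and 5 lower in the others. Among the regulators 1 of 14 rose and 3 fell in WT livers, and 4 rose and 6 fell in livers labelled HuRHep-/-.

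**Figure D5:**
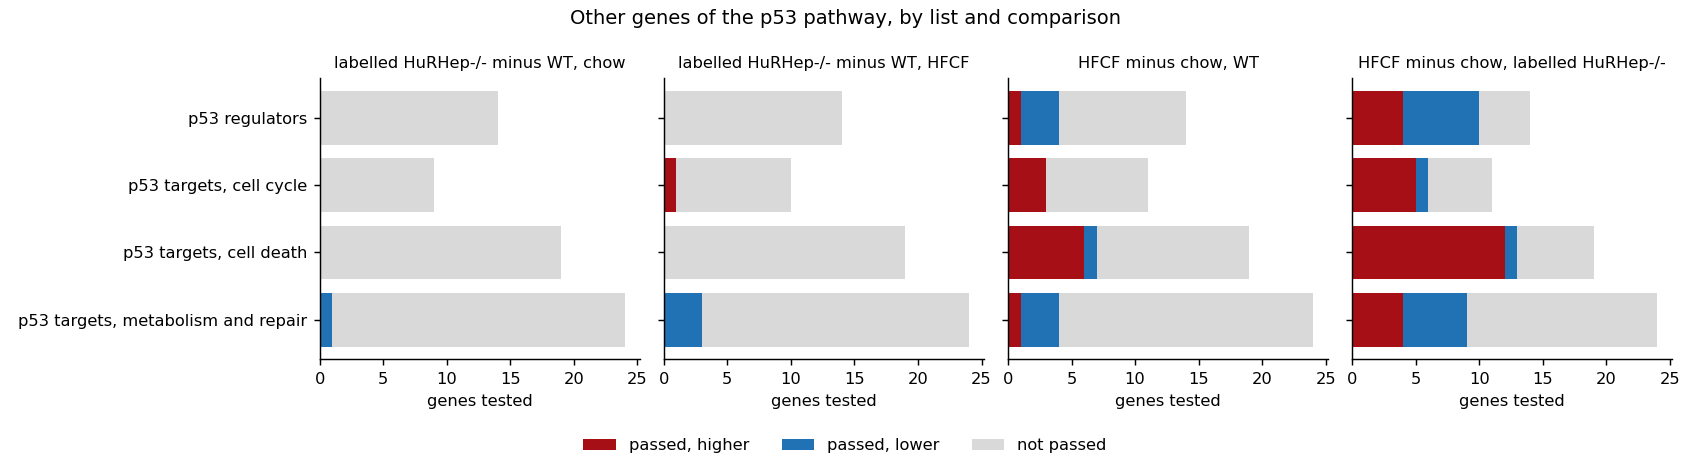
Number of genes tested (horizontal axis) in each of 4 lists of the p53 pathway, split into those that passed higher, passed lower or did not pass, in the 4 comparisons. With diet 6 of the 19 cell death targets passed higher in WT and 12 in livers labelled HuRHep-/-, and between genotypes 1 of all these genes passed in chow and 4 on HFCF.

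Between genotypes, in chow, where 4.18% of all genes passed, 0 of 66 were higher and 1 was lower, *Pank1*, a pantothenate kinase of coenzyme A synthesis, which fell from a mean of 203 to 150 CPM (log2 fold change -0.44, adjusted p = 0.022). On HFCF, where 6.79% of all genes passed, 1 of 67 was higher and 3 were lower in livers labelled HuRHep-/-. *Psrc1* was higher at 1.56 against 0.506 CPM (1.65, adjusted p = 0.0391), and *Pank1* (-0.66, adjusted p = 0.016), the cytochrome oxidase assembly gene *Sco2* (-0.63, adjusted p = 0.0235) and *Dcxr*, a xylulose reductase (-0.35, adjusted p = 0.0449), were lower. The interaction passed for 0 of 68, as for all genes.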

How the data were processed

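Raw read counts per gene were taken from the 2 tables the authors deposited, 1 for each diet, with 20775 and 22709 genes and 3 libraries per group. Per the methods and the submitters' processing notes, reads were aligned with a strand setting to GRCm38.p6 (mm10) in CLC Genomics Workbench, whose version is not given in the sources used here. The deposited counts were whole numbers, and 21506 and 23123 of them carried commas that were removed before reading. The tests were made on log2 CPM computed here, not with a count model, a choice that the counts themselves did not require.

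Scaling used TMM factors (trims of 0.3 and 0.05) and a pseudocount of 0.5. The filter asked for a CPM worth 10 counts at the median library size in at least 3 libraries, and for 15 counts in total. limma 3.58.1 (R 4.3.3) was fitted with a variance trend to the 6 libraries of a diet for genotype, and to all 12 libraries for diet and interaction, with Benjamini-Hochberg adjustment over all genes tested. A gene passed at an adjusted p of at most 0.05; fold changes are on the log2 scale with the pseudocount. CPM values printed per liver are on 1 scale over the 12 libraries. For 3 livers against 3, the smallest p of an exact permutation test is 0.1. Libraries of a group were taken as separate livers, and p-values measure the spread between them, part of which may be technical.

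The fits were tested on simulated data with 200 changed genes. Of these, 185 were called in chow beside 7 unchanged genes (13392 genes). In HFCF 195 were called beside 8 (14150 genes), and in the interaction 136 beside 8 (14303 genes). Within groups, the SD of log2 CPM of the members ran from 0.01 (*Ccng1*, chow WT) to 1.08 (*Cdkn1a*, HFCF WT). How often a change would be called at the spread of each member was not tested.

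The members and lists were chosen with earlier results of these data known. All 10 members and *Elavl1* are named, of the p53 lists at most the 5 passing genes with the largest change per comparison (*Bcl2l1* and *Triap1* were added after their values were seen), of other lists at most 3, and the 5 genes whose profile is most like that of the member with the widest range. Positions are from GENCODE M21. Alternatives were RLE and upper-quartile factors, no filter, a pseudocount of 2, voom weights, a block for the replicate number, genotype fitted over all 12 libraries, the added fold criterion and leaving out each library.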

Additional observations from a re-analysis of the deposited data

How the results depend on the processing

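Of 800 values of single members under the alternatives, 734 kept their direction and their side of the threshold, and of 85 counts of members passing, 82 lay within 1.5 times of the count reported. With diet, leaving out a library gave 4 or 5 members passing in WT livers and 4 to 6 in livers labelled HuRHep-/-, and the added fold criterion gave 3 and 4. Without the filter on low counts 5 passed in livers labelled HuRHep-/-. On HFCF the count between genotypes was 0, with a range of 0 to 2 when a library was left out, and 1 in the fit on all 12 libraries (*Bax*). With the replicate block, 5 members passed with diet in WT livers (*Trp53inp1* was added, adjusted p = 0.0136), 6 in livers labelled HuRHep-/-, and 0 in each of the other comparisons. Deviations of livers with the same number correlated at -0.0276, 0.112 and -0.0158 in chow and 0.1, 0.21 and 0.0898 in HFCF. The numbers were not taken as pairs in the main fits. The best partner had the same number for 3 of 3 in HFCF and for 1 of 3 in chow. In every group *Fas* and *Bbc3* were highest in replicate 1, and *Fas* and *Trp53* lowest in replicate 3. With the block, the genes called between genotypes went from 971 to 1342 on HFCF and from 566 to 341 in chow. On HFCF the standard error fell from 0.326 to 0.133 for *Gdf15* and rose from 0.137 to 0.145 for *Ccng1*. What the replicate number stands for was not tested. The estimates that changed sign were all of members that did not pass. With upper-quartile factors these were, between genotypes on HFCF, *Fas* (0.016), *Bbc3* (0.016) and *Trp53inp1* (0.00096), and with diet in livers labelled HuRHep-/- *Mdm2* (0.024). These factors moved the median of all genes from -0.00175 to 0.0498 on HFCF and from 0.002 to 0.0808 with diet in livers labelled HuRHep-/-, a shift of about the size of those of these members, so relative to other genes they did not turn. With voom weights the interaction of *Bbc3* was -0.015. With a library left out, the log2 fold changes ran as follows. Between genotypes in chow they were -0.18 to 0.06 for *Trp53*, -0.22 to 0.41 for *Cdkn1a*, -0.45 to 0.46 for *Gdf15*, -0.13 to 0.012 for *Fas*, -0.23 to 0.12 for *Bbc3* and -0.31 to 0.30 for *Phlda3*. On HFCF they were -0.098 to 0.037 for *Fas*, -0.20 to 0.17 for *Bbc3* and -0.27 to 0.27 for *Trp53inp1*. The interaction was -0.098 to 0.12 for *Ccng1*, -0.09 to 0.83 for *Gdf15*, -0.04 to 0.11 for *Fas* and -0.17 to 0.21 for *Bbc3*. With diet in WT livers they were -0.18 to 0.029 for *Trp53*, -0.093 to 0.15 for *Bax* and -0.12 to 0.21 for *Bbc3*, and in livers labelled HuRHep-/- -0.086 to 0.29 for *Bbc3*. The cause of the changes with voom weights and with single libraries was not tested. Counting error is largest for *Phlda3* and *Cdkn1a* in chow, with 16 to 76 reads per library.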

Other observations

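Genes of the integrated stress response, of which *Sesn2* and *Ddit4* are also on the p53 lists, went both ways with diet. Of all genes 11.3% rose and 12.9% fell in WT livers, and 19.7% and 19.1% in those labelled HuRHep-/-. In WT livers 1 of 18 genes of the list rose, *Fgf21*, a liver hormone (log2 fold change 1.84, adjusted p = 0.00435), and 4 fell, *Asns*, the asparagine synthetase gene, the most (-2.55, adjusted p = 0.00559). In livers labelled HuRHep-/- 7 of 18 rose and 4 fell. *Slc7a11* and *Stc2*, which were under the filter on low counts in chow and entered through the HFCF livers, were among the 7. Of the 16 genes that also passed the filter in chow 5 rose, with *Vldlr* (2.79, adjusted p = 0.000911) and *Atf3* (2.77, adjusted p = 0.0052) the largest changes. *Slc7a11*, a cystine transporter gene, had 0, 2 and 0 reads in chow and 11, 6 and 26 on HFCF in livers labelled HuRHep-/-, too few for a fold change. Between genotypes 0 of the tested genes of this list passed by limma in either diet. The summed level of the list was 311 to 341 CPM in chow WT, 258 to 331 in chow HuRHep-/-, 306 to 382 in HFCF WT and 254 to 373 in HFCF HuRHep-/-, with overlap between all groups.

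Glucocorticoid and clock genes, which vary with the hour of sampling, summed to 1581 to 1934 CPM in chow WT, 1331 to 2615 in chow HuRHep-/-, 1001 to 1833 in HFCF WT and 1083 to 1942 in HFCF HuRHep-/-. Replicate 1 was the lowest in 3 of these groups, at 1331, 1001 and 1083 CPM, and in the same 3 livers *Trp53inp1* was the lowest of its group, at 29.6, 40 and 35 CPM. The part of sampling time in this was not tested. Between genotypes 0 of 16 genes of this list passed in chow, where 4.18% of all genes passed. On HFCF 1 of 16 passed, *Cry1* (-0.78, adjusted p = 0.0407), where 6.79% of all genes passed. With diet *Nr1d2* fell in WT livers (-0.36, adjusted p = 0.0159), and *Nr1d2* (-0.48, adjusted p = 0.00219) and *Clock* (-0.52, adjusted p = 0.0239) fell in those labelled HuRHep-/-. That is 1 and 2 of 17 genes tested, and 12.9% and 19.1% of all genes fell.

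With diet 11.3% of all genes rose in WT livers and 19.7% in those labelled HuRHep-/-, beside which the following counts stand. Of the 5 T and NK lymphocyte markers that passed the filter in chow as well, 2 rose with diet in livers labelled HuRHep-/- (*Nkg7*, 1.47, among them) and 0 in WT livers. *Cd3d*, *Cd3e*, *Cd8a* and *Gzma* passed it only through the HFCF livers, so their calls are not counted here. Of the B lymphocyte markers 1 of 7 rose in each genotype, *Cd22* (1.00 in WT and 0.86 in livers labelled HuRHep-/-). Of the neutrophil markers 1 of 3 tested rose in livers labelled HuRHep-/-, *Csf3r* (1.06). Of the 9 endothelial markers 1 rose in WT livers, *Cdh5* (0.41), and 3 rose in those labelled HuRHep-/-, *Cdh5* (0.70), *Pecam1* (0.67) and *Egfl7* (0.41). Of the cholangiocyte markers 7 of 8 tested rose and 1 fell in livers labelled HuRHep-/-, with *Krt7* (1.99) and *Krt19* (1.74) among the largest, and in WT livers 0 rose and *Cdh1* fell (-0.67).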
